A study of Mus musculus with 16 samples.

Results

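Sorted cells with and without the tdTomato reporter were compared within 2 genotypes of the mouse gene Zfp318, and the results below concern how that reporter effect differed between the genotypes. The quantity is the log2 fold change of tdTomato-positive over tdTomato-negative cells in homozygous mice minus the same fold change in heterozygous mice, called the interaction. All 16 libraries of the study enter it, 4 in each of 4 groups, so there is no library outside the comparison. The groups HetTN and HetTP hold tdTomato- and tdTomato+ cells from Zfp318 ZSDAT/+ mice, and KOTN and KOTP are the same sorted populations of Zfp318 ZSDAT/ZSDAT mice. Every group, the heterozygous ones included, also carried AID-Cre and B1-8hi GFP on the C57BL/6 strain and was taken from spleen 7 days after NP-OVA was given with LPS and alum. The sorted B cells carried B220 and CD38 on the surface, bound NIP, and were negative for GL7, FAS, IgD and CD138. About 1000 cells were lysed per library and amplified with Smart-seq2. A value above 0 means that the fold change was more positive, or less negative, in homozygous than in heterozygous cells.

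Zfp318 is a zinc finger protein of mature B cells that lets transcription run from the Ighm exons into the Ighd exons, so that IgD can be made by splicing. AID-Cre turns on Cre recombinase in cells that have expressed AID, the enzyme of class switching and somatic hypermutation, and so acts in B cells that were activated by antigen. The B1-8hi heavy chain binds the hapten NP and its relative NIP when it is paired with a lambda light chain. B cells with a memory phenotype persist after the germinal center reaction or arise beside it, and they can become plasma cells on renewed contact with antigen. The labels do not spell out the ZSDAT allele, give no age and do not say whether the libraries of a group are from different animals. A p-value here measures library-to-library spread, which may be technical. The IgD gate acts on a protein that depends on Zfp318. Sorting of unlike cells in the genotypes and a change within cells therefore cannot be told apart, nor can fewer cells of a type and less RNA per cell.

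Total counts per library ran from 7748787 to 15742445. The heterozygous libraries were much more variable than the homozygous ones, with a biological coefficient of variation of 0.980 against 0.211 and a median correlation of log2 counts per library size (CPM) within a group of 0.762 to 0.801 against 0.955 to 0.964. Between 7.02% and 13.6% of the 10687 genes tested were without any count in the heterozygous libraries, against 1.52% to 2.34% in the homozygous ones. The genotypes were deposited as separate tables, so genotype and table cannot be told apart as sources of a difference between them. A table effect that multiplies both sorted populations alike cancels in the interaction, but a difference in how many genes were captured does not. B lineage markers were high in every library, with a summed level of 10831 to 19413 CPM (read counts scaled to library size with TMM). T cell markers summed to 212 to 737 CPM in heterozygous and 34.8 to 54.5 CPM in homozygous libraries, and among them Cd4 and Cd28 were at 0 everywhere while Trac had 12837 and 15350 counts in HetTN and HetTP and 0 and 2 in KOTN and KOTP. None of the 8 T cell, 17 macrophage and monocyte, 7 erythroid, 2 NK cell and 2 neutrophil markers tested was called for the interaction, and of 5 dendritic cell markers 1 was, Itgax. The median SE of these lists other than the dendritic one was 1.22 to 2.78, so the absence of a call excludes little. Single heterozygous libraries stood apart in their summed levels. Erythroid markers reached 746 CPM in HetTP replicate 4, against 21.1 to 97.6 in the other heterozygous libraries. Neutrophil markers reached 281 CPM in HetTN replicate 3, against 0 to 14.3, and NK cell markers 126 CPM in HetTP replicate 3, against 0 to 11.1. Few members carried these sums. Over a group, Car2 had 297 counts in HetTN and 9005 in HetTP, while Hba-a1 had 1085 and 1045. Nkg7 had 2042 counts in HetTP, where Ncr1, Gzma, Gzmb and Eomes had 0. S100a8 and S100a9 had 2392 and 1971 counts in HetTN, where Ly6g, Camp and Ngp had 0. The sums alone therefore do not identify cell types.

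Zfp318 itself (GRCm38 chromosome 17, 46383731 to 46420920, plus strand) was low in both homozygous groups. HetTN libraries had 71, 153.3, 116 and 133 CPM and HetTP libraries 109.6, 83.8, 94.1 and 121 CPM. KOTN libraries had 5.82, 0.467, 1.46 and 2.17 CPM and KOTP libraries 2.83, 2.92, 0.911 and 1.23 CPM. Every heterozygous library was above every homozygous one, and the sorted populations overlapped in both genotypes. The interaction was -0.12 (95% interval -1.53 to 1.29, edgeR adjusted p = 0.998), an interval wide enough to hold more than a doubling in either direction. Ighd, which needs Zfp318, had 912 ± 110.2 CPM in HetTN and 906 ± 153 in HetTP (SD, n = 4), against 29.2 ± 10.4 in KOTN and 23.5 ± 5.7 in KOTP. Its interaction was -0.30 (interval -0.93 to 0.33, edgeR adjusted p = 0.898). Ighm, the heavy chain of IgM, had an interaction of 0.53 (interval -0.02 to 1.09, edgeR adjusted p = 0.565), from 13235 ± 4414 and 8688 ± 2337 CPM in HetTN and HetTP and 2871 ± 157 and 2727 ± 162 CPM in KOTN and KOTP.

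Few genes were called for a difference in reporter effect between the genotypes. mt-Nd1 and mt-Nd2, mitochondrially encoded subunits of respiratory complex I, were lower with the reporter in heterozygous cells (-1.21 and -1.57 on the log2 scale) and had 0.18 and 0.24 in homozygous cells. The lambda light chain gene Iglc1 had -0.92 and 0.10, and the peptide-loading gene H2-DMb1 -0.66 and 0.22. Fcmr, the Fc receptor for IgM, was higher with the reporter in homozygous cells (0.67) and had -0.19 in heterozygous ones. Itgax, which encodes the integrin CD11c, was nearly absent from HetTN and lower in KOTP than in KOTN. With edgeR's quasi-likelihood test across all 16 libraries, 13 of 10687 genes passed an adjusted p of 0.05, 8 with a positive and 5 with a negative interaction, which is 0.122% of genes (0.0749% and 0.0468%). At an unadjusted p under 0.05 there were 992 genes (9.28%), 430 positive (4.02%) and 562 negative (5.26%). In all 13 the reporter effects of the genotypes had opposite signs, which a test of their difference favors. For 12 of the 13 the heterozygous effect was the larger in size, the exception being Fcmr.

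These counts depend on how the unequal spread of the genotypes was treated. The test above gives each gene 1 estimate of spread for both genotypes, although they differ in it. With a quality weight per genotype (limma voom) 7 genes passed (0.0655%), namely mt-Nd1, mt-Nd2, mt-Nd4, mt-Nd6, Fcmr, Iglc1 and Lgals1, of which 4 were among the 13. With a spread of its own for each genotype 1 passed (0.0094%), Igkv4-50. Leaving out any 1 of the 8 homozygous libraries (KOTN or KOTP replicates 1, 2, 3 and 4) left 1 call, Itgax. Without HetTN replicate 1, 2, 3 or 4 the count was 41, 28, 33 or 28, and without 1 HetTP library it was 10 to 16.

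**Figure D1:**
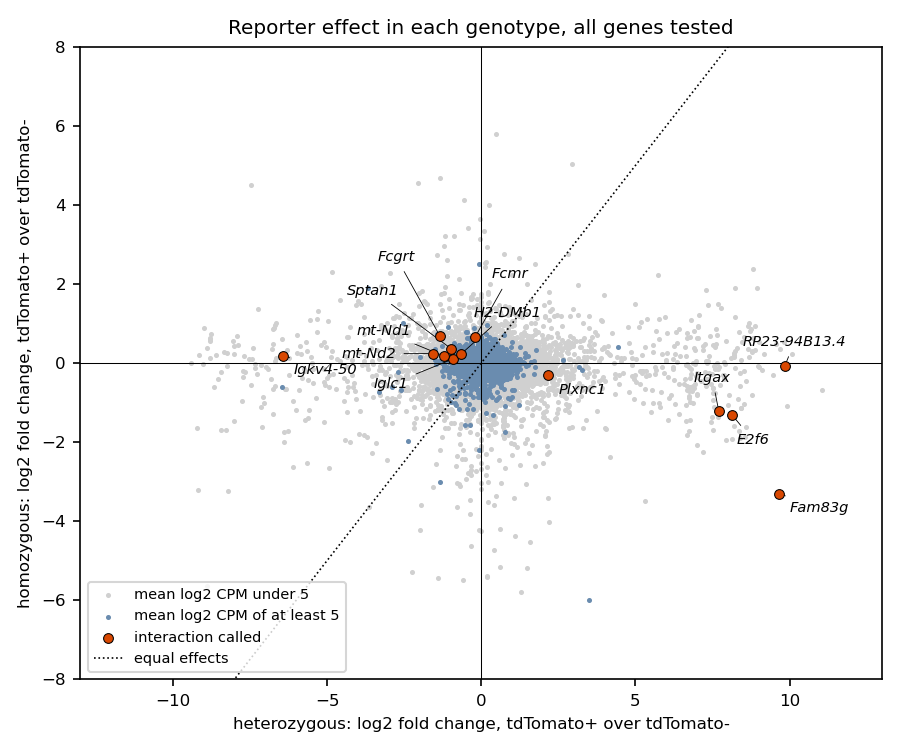
Log2 fold change of tdTomato-positive over tdTomato-negative cells in homozygous mice (vertical) against heterozygous mice (horizontal) for the 10687 genes tested, 1 point per gene, from 4 libraries per group. The 13 genes called for the interaction (filled circles) lie away from the dotted line of equal effects, most of them along the horizontal axis.

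Mitochondrially encoded genes are transcribed inside the organelle and encode core subunits of the respiratory chain. mt-Nd1 (chromosome M, 2751 to 3707, plus strand, a coding gene without introns) had 6004, 4287, 7238 and 6570.2 CPM in the HetTN libraries and 1636, 3187, 3169 and 2444 CPM in HetTP. KOTN libraries had 2194, 2451, 2535 and 2342 CPM and KOTP libraries 2721, 2721, 2476 and 2838 CPM. The HetTN libraries were above all others, and the ranges of the remaining 3 groups overlapped. The fold change was -1.21 (SE 0.18) on the log2 scale in heterozygous and 0.18 (SE 0.18) in homozygous cells, which gives an interaction of 1.38 (SE 0.25, edgeR adjusted p = 0.0401). With a spread of its own for each genotype, the SE was 0.227 in heterozygous and 0.064 in homozygous cells. In those separate edgeR fits the adjusted p was 0.0924 for the interaction and 0.4315 for the heterozygous effect.

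mt-Nd2 (chromosome M, 3914 to 4951, plus strand) had 1056, 612, 1368 and 1019.5 CPM in HetTN and 189, 373, 484 and 315 CPM in HetTP. It had 317, 296, 281 and 260.2 CPM in KOTN and 347, 349.8, 315 and 351 CPM in KOTP. Again HetTN was above all other libraries. The interaction was 1.81 (SE 0.33, edgeR adjusted p = 0.0401), from -1.57 in heterozygous and 0.24 in homozygous cells. Its adjusted p was 0.0924 with a spread of its own for each genotype. The complex I subunits mt-Nd6 (1.86, SE 0.39) and mt-Nd4 (1.26, SE 0.27) had an adjusted p of 0.0812 each with edgeR and passed with the weight per genotype, at 0.0439 and 0.0111.

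All 13 mitochondrially encoded protein genes had a positive interaction, with values from 0.61 for mt-Nd5 to 3.35 for mt-Nd3 and a median of 1.24, against -0.048 over all genes tested. Of these 13, 2 were called and 10 had an unadjusted p under 0.05, all of them positive. The shares of positive genes over all genes tested were 0.0749% and 4.02%. The 13 genes are not independent of each other, so their shared sign does not count as separate observations. The reporter effect was below 0 for all 13 in heterozygous cells, with a median of -1.16. There 6 were called lower, against 0.468% of all genes. With the heterozygous spread alone none of the 13 was called, nor was any other gene tested. In homozygous cells the reporter effect was above 0 for 11 and below 0 for 2, with a median of 0.094, and none was called. mt-Co1, the catalytic subunit of cytochrome oxidase, had 12377 ± 3070.3 CPM in HetTN and 5988 ± 1811 in HetTP, against 5605 ± 353 in KOTN and 5747 ± 329 in KOTP (SD, n = 4). mt-Cytb of complex III had 9467 ± 1722 and 5711 ± 1950.3 CPM in HetTN and HetTP, and 4303 ± 249 and 4353 ± 49.4 CPM in KOTN and KOTP. These 2 had interactions of 1.08 (edgeR adjusted p = 0.156) and 0.75 (0.316). Some members were measured at low level, among them mt-Atp8 (2.62, SE 1.78) and mt-Nd4l (1.03, SE 1.27).

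**Figure D2:**
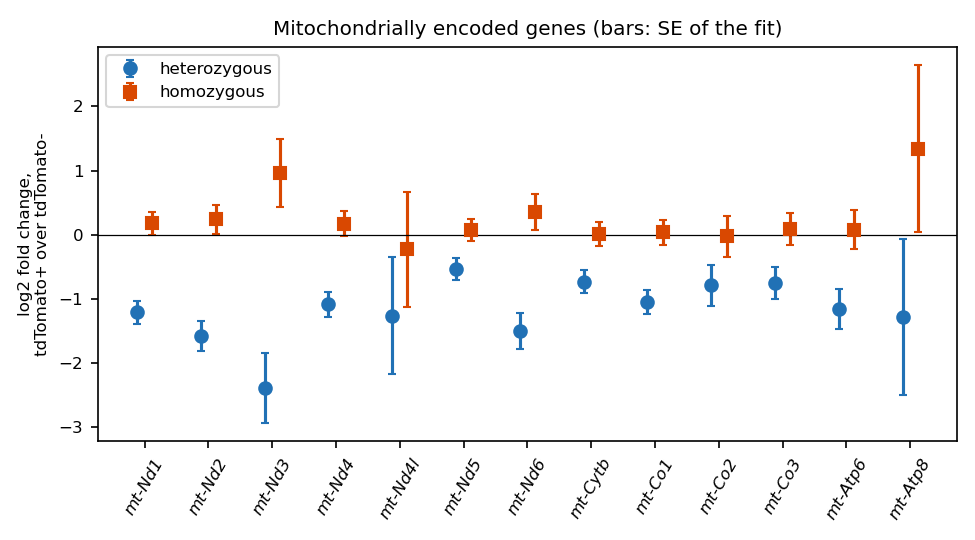
Log2 fold change of tdTomato-positive over tdTomato-negative cells for the 13 mitochondrially encoded protein genes, in heterozygous (circles) and homozygous (squares) mice, with bars of 1 SE of the fit. The SE uses 1 spread for both genotypes, so the bars do not show how the genotypes differ in spread. The heterozygous values all lie below 0 (median -1.16) and the homozygous ones around 0 (median 0.094).

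Most subunits of the respiratory chain are encoded in the nucleus. Of 70 such genes tested, none was called and 5 had an unadjusted p under 0.05, all positive, against 4.02% of all genes. Their median interaction was 0.181, 58 lying above 0 (5040 of all 10687 genes), from medians of -0.195 in heterozygous and -0.029 in homozygous cells. Ndufb6 of complex I had the smallest p, with an interaction of 0.88 (SE 0.30, edgeR adjusted p = 0.289) from 136 ± 37.2 and 79.3 ± 17.7 CPM in HetTN and HetTP. The 34 genes of mitochondrial dynamics and mitophagy had a median of -0.122, with none called. Chchd10, a nuclear gene for a small protein of the mitochondrial intermembrane space, had 466, 764, 571 and 935 CPM in HetTN and 344 to 361 CPM in HetTP, against 423 to 487 in KOTN and 439 to 568 in KOTP. Its interaction was 1.08 (SE 0.23, edgeR adjusted p = 0.0812).

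Other measures also differed in level between the heterozygous populations, without following the mitochondrial transcripts library by library. Mitochondrially encoded genes took 2.65% to 4.26% of counts in HetTN and 1.27% to 2.60% in HetTP, against 1.44% to 1.63% in homozygous libraries. Tested genes without a count made up 11.7% to 13.6% in HetTN and 7.02% to 11.2% in HetTP. The 20 macrophage and monocyte markers summed to 563 to 1526 CPM in HetTN and 151 to 936 CPM in HetTP, which overlap. Homozygous libraries had 99.6 to 189 CPM. C1qb had 5886, 4816, 237 and 216 counts in HetTN, HetTP, KOTN and KOTP, while Vsig4 was at 0 in every group. Adgre1 went the other way, with means of 12.0, 9.84, 42.4 and 39.5 CPM in the same order. Cd68 had 49.9, 27.4, 47.6 and 23.6 CPM. Cd5l, Cd14, Ly6c2 and Mertk had higher means in HetTP than in HetTN. In HetTN, replicate 2 had the lowest mitochondrial share (2.65%), with 13.6% of tested genes without a count and 1526 CPM of macrophage and monocyte markers. Replicate 3 had the highest share (4.26%), with 11.7% and 807 CPM. The part of these measures in the result was not tested. Reads shared with nuclear copies of mitochondrial genes are a further uncertainty, since the handling of reads with several matches is not given in the sources used here.

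Fcmr (chromosome 1, 130865669 to 130880791, plus strand) was the called gene with the larger effect in homozygous cells. HetTN libraries had 2320.0, 2404, 2215 and 2880.3 CPM and HetTP libraries 2109, 2053, 2442 and 1987 CPM, which overlap. KOTN libraries had 1044, 998, 1020.0 and 998 CPM and KOTP libraries 1516, 1625, 1684 and 1616 CPM, which do not. The fold change was -0.19 (SE 0.10) in heterozygous and 0.67 (SE 0.10) in homozygous cells, and the interaction 0.86 (SE 0.15, edgeR adjusted p = 0.0368). Fitted with its own spread, each genotype had another SE, 0.154 in heterozygous and 0.062 in homozygous cells. From those fits the interaction of Fcmr had an adjusted p of 0.1122. Without any 1 of the 8 homozygous libraries its adjusted p was between 0.0692 and 0.126, and without any 1 heterozygous library it passed in 8 of 8 fits.

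Iglc1, the constant region of the lambda 1 light chain (chromosome 16, 19061618 to 19062071, minus strand), belongs to the light chain class with which B1-8hi binds its hapten. HetTN libraries had 3244, 2806, 2454 and 3090.0 CPM and HetTP libraries 1578, 1413, 2005 and 1122 CPM. KOTN libraries had 11006, 10443, 11986 and 10541 CPM and KOTP libraries 11678, 11976, 11930.1 and 11596 CPM. The heterozygous populations did not overlap, the homozygous ones did, and every homozygous library was above every heterozygous one. The interaction was 1.02 (SE 0.19, edgeR adjusted p = 0.0429). The other light chain constant genes were all positive and not called, at 0.56 for Iglc3, 1.44 for Iglc2 and 0.55 for Igkc, so all 4 lay above 0. In Iglc2 the HetTN mean of 4241 ± 4904 CPM (SD, n = 4) has a spread larger than itself. Lambda constant genes are close copies of each other, so reads may have been split between them.

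H2-DMb1 (chromosome 17, 34153072 to 34160230, plus strand) is the beta chain of the H2-DM complex, which exchanges peptides on MHC class II. It had 327, 276, 317 and 298 CPM in HetTN and 186, 199.7, 211 and 172 CPM in HetTP, which do not overlap. It had 273, 246, 242 and 237 CPM in KOTN and 289, 323, 284 and 268 CPM in KOTP, which overlap by 1 library. The interaction was 0.89 (SE 0.16, edgeR adjusted p = 0.0401). Of the 15 genes of MHC class II presentation tested, this was the 1 called, and the median was 0.251. At an unadjusted p under 0.05, 6 were positive and 1 negative, against 4.02% and 5.26% of all genes. H2-Ob, a chain of the inhibitor H2-O, had 734 ± 60.3 and 624 ± 36.7 CPM in HetTN and HetTP and 1099.7 ± 57.2 and 1357 ± 75.2 CPM in KOTN and KOTP (SD, n = 4). Its populations did not overlap in either genotype and its interaction was 0.54 (SE 0.14, edgeR adjusted p = 0.157). H2-Ab1, a chain of the class II molecule I-A, was called lower in HetTP (-0.45) and had 0.02 in homozygous cells, with an interaction of 0.47 (SE 0.13, edgeR adjusted p = 0.169). Ciita, the transactivator of class II genes, went the other way, with 93.8 ± 30.2 and 174 ± 46.6 CPM in HetTN and HetTP and an interaction of -0.68 (SE 0.31, edgeR adjusted p = 0.505).

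Fcgrt encodes the neonatal Fc receptor, which recycles IgG (chromosome 7, 45092990 to 45103851, minus strand). Its libraries had 55.6, 79.1, 70.2 and 54.7 CPM in HetTN, 31, 12.9, 19.1 and 39.2 in HetTP, 82.9, 68.9, 61.1 and 63.8 in KOTN, and 101, 138, 117 and 91.6 in KOTP. The sorted populations did not overlap in either genotype and lay in opposite order. The interaction was 2.04 (SE 0.39, edgeR adjusted p = 0.0452), from -1.35 and 0.69. Sptan1, the alpha chain of the membrane skeleton protein spectrin (chromosome 2, 29965560 to 30031451, plus strand), had 139 to 213 CPM in HetTN and 65.7 to 110.1 in HetTP. It had 113 to 154 CPM in KOTN and 161 to 187 in KOTP, again without overlap and in opposite order. The interaction was 1.33 (SE 0.25, edgeR adjusted p = 0.0429).

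Plxnc1, a plexin that binds semaphorin 7A (chromosome 10, 94790866 to 94944835, minus strand), had a negative interaction. HetTN libraries had 7.79, 14.1, 9.59 and 7.76 CPM, and HetTP libraries 59.2, 47.5, 54.3 and 16.7 CPM. KOTN libraries had 48.9, 57.7, 52.9 and 66.4 CPM and KOTP libraries 49.6, 42.6, 45.7 and 44.4 CPM. HetTN was below all other libraries, and HetTP replicate 4 lay nearest to it. The interaction was -2.49 (SE 0.46, edgeR adjusted p = 0.0401), from 2.18 in heterozygous and -0.31 in homozygous cells.

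Itgax (chromosome 7, 128129547 to 128150657, plus strand) marks a subset of activated and memory B cells together with the transcription factor T-bet, and marks dendritic cells as well. HetTN libraries had 0, 0, 0.13 and 0 CPM, which is 2 counts in all, and HetTP libraries 13.7, 9.22, 11.2 and 8.94 CPM. KOTN libraries had 38.9, 31.5, 31.1 and 24.3 CPM and KOTP libraries 10.5, 12.5, 11.4 and 20.1 CPM. The ratio of HetTP to HetTN pooled over libraries was 251, with a 95% counting interval of 69.1 to 2073, and that of KOTP to KOTN was 0.464. The populations did not overlap in either genotype, as for 4.52% of all genes in heterozygous and 7.26% in homozygous cells, and lay in opposite order. The fitted interaction of -8.91 (edgeR adjusted p = 7.4e-05) rests on the 2 HetTN counts and on the prior count of the fit, so its size is no estimate of a fold. It was called in 16 of 16 fits without 1 library, but had an adjusted p of 0.185 with a spread of its own for each genotype and of 0.258 with the weight per genotype. Tested genes without a single count numbered 227 in HetTN, 131 in HetTP, 17 in KOTN and 34 in KOTP. The part of this capture difference in the Itgax result was not tested.

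**Figure D3:**
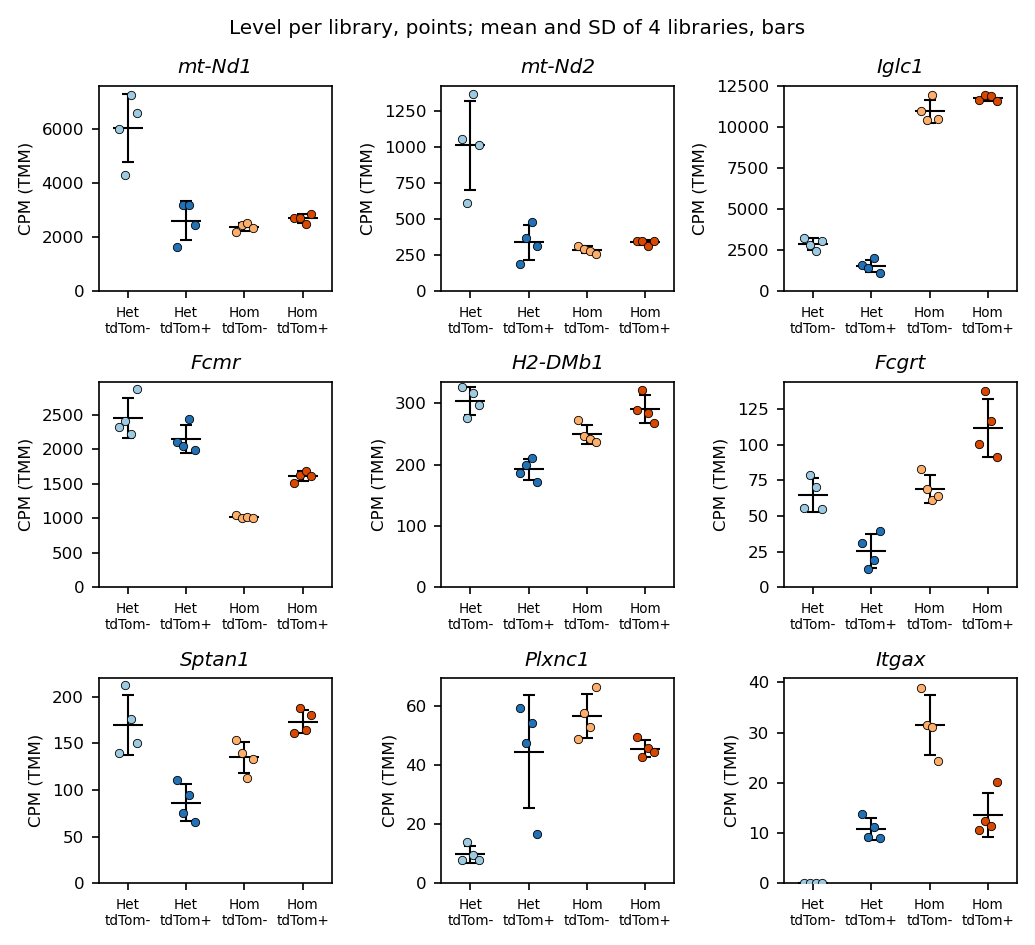
CPM in each of the 16 libraries (points) with the mean and SD of 4 libraries (bars) for 9 genes called for the interaction, by genotype and reporter. For mt-Nd1, mt-Nd2 and Plxnc1 the HetTN group alone stands apart, while for Fcmr the KOTN and KOTP groups are separated and the heterozygous ones overlap.

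The other 4 called genes were outside the rule for named genes and are given because they complete the 13, so they were chosen after their values were seen. E2f6, a repressor of the E2F family (chromosome 12, 16810963 to 16839742, plus strand), had 1 count in HetTN and 518 in HetTP, against 130 in KOTN and 61 in KOTP. Fam83g (chromosome 11, 61684091 to 61709951, plus strand) had 0 counts in HetTN and 541 in HetTP, at least 148-fold higher against a floor of 3 counts over the group, and 84 and 12 counts in KOTN and KOTP. RP23-94B13.4, a clone name without a position in the annotation used, had 0 counts in HetTN and 599 in HetTP, at least 163.5-fold higher by the same floor, and 129 and 136 counts in KOTN and KOTP. Igkv4-50, a kappa variable segment (chromosome 6, 69700767 to 69701287, minus strand), had 2313 counts in HetTN and 32 in HetTP, against 156 and 185 in KOTN and KOTP. In each of these the homozygous groups differed less than the heterozygous ones, and 4 of the 13 called genes, Itgax among them, had a group at 3 counts or fewer. Such floors and intervals cover counting error only, since the reads carried no molecular identifiers.

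Genes just above the threshold are given as values. Sdr39u1, a protein of the short-chain dehydrogenase family, had 149 to 166 CPM in HetTN and 60.5 to 92.7 in HetTP, against 86.7 to 113 in KOTN and 89.5 to 113 in KOTP, and an interaction of 1.04 (SE 0.22, edgeR adjusted p = 0.0812). Prpf8, a core protein of the spliceosome, had 0.93 (SE 0.20, 0.0876), Ypel3 had 0.97 (SE 0.20, 0.0812), and both were lower in HetTP than in HetTN in every library. Dpp3, a dipeptidyl peptidase, had 45.5 to 83.5 CPM in HetTN and 110.5 to 169 in HetTP with an interaction of -1.31 (SE 0.28, 0.0812). Ctso, the protease cathepsin O, did not overlap in either genotype and lay in opposite order, with -0.86 (SE 0.19, 0.104). Lgals1, the secreted lectin galectin-1, had 80.7 ± 32.7 and 137 ± 53.7 CPM in HetTN and HetTP and 135 ± 14.4 and 64 ± 9.27 CPM in KOTN and KOTP. Its interaction was -1.84 (SE 0.39, edgeR adjusted p = 0.0812), and 0.0439 with the weight per genotype. Spn, the sialoglycoprotein CD43, had 1 count in HetTN and 201 in HetTP, and 647 and 412 counts in KOTN and KOTP (edgeR adjusted p = 0.071).

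The 2 reporter effects behind the interaction share no library. In heterozygous cells 114 genes were called (1.07%), 64 higher (0.599%) and 50 lower (0.468%) in reporter-positive cells. In homozygous cells 2 were called (0.0187%), Fcmr higher (0.00936%) and Jchain lower (0.00936%). Across the 10687 genes the effects had a Pearson correlation of -0.010 and a Spearman correlation of -0.030, as a description over genes, which are not independent. Over the 4342 genes whose mean log2 CPM reached 5 they were -0.059 and -0.055. Of the 114 genes called in heterozygous cells, 40 had the same sign and 74 the opposite sign in homozygous cells, where their median size was 0.141 against 1.49. These genes were picked by their heterozygous effect, which favors a larger size in heterozygous cells. For 111 of the 114 the 95% interval in homozygous cells included 0. These intervals use the spread shared by both genotypes, which widens them. The median homozygous SE over all genes was 0.468 with it and 0.201 with the homozygous spread alone. The median heterozygous SE was 0.463 with it and 0.627 with the heterozygous spread alone, so sharing narrowed the heterozygous intervals at the median. In 30 of the 114 a heterozygous group had 3 counts or fewer, 24 of them higher genes with next to no counts in HetTN. When each genotype was fitted with its own spread, heterozygous cells gave 0 calls (663 at an unadjusted p under 0.05) and homozygous cells 232 (2.17%). Those 232, picked by their homozygous effect, had a median size of 0.663 in homozygous against 0.317 in heterozygous cells. Of them 101 had the same and 128 the opposite sign in heterozygous cells. The heterozygous count was 488, 205, 140 and 208 without HetTN replicates 1, 2, 3 and 4. It was 124, 123, 209 and 139 without HetTP replicates 1, 2, 3 and 4, and 46 to 67 without 1 of the 8 homozygous libraries. The homozygous count was 0 to 3 without 1 library of any group.

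Stk24, a kinase of the STE20 family, had 36.8 to 66.8 CPM in HetTN and 112 to 146 in HetTP, with a fold change of 1.42 (edgeR adjusted p = 0.00396), against 0.25 in homozygous cells. Cog5, a subunit of the Golgi tethering complex COG, had 6.14 to 13.7 and 21.6 to 39.8 CPM in HetTN and HetTP, a fold change of 1.92 (0.0111), and 0.28 in homozygous cells. Cxcr5, the receptor that guides B cells into follicles, had 0.86 (0.0251) and -0.03, and Mcl1, a survival protein of the BCL2 family, had 0.91 (0.0418) and 0.09. Mzb1, a chaperone of immunoglobulin assembly, was called lower at -0.83 (0.00968) and had -0.05 in homozygous cells. Nrde2, a nuclear protein of RNA processing, was called lower at -2.08 (0.0111) and had 0.03. None of these 6 had a called interaction, their adjusted p lying between 0.136 and 0.327 with edgeR. Their reporter effects are thus not shown to differ between the genotypes. With the heterozygous spread alone, none of the 6 heterozygous effects passed, their edgeR adjusted p lying between 0.4315 and 0.7894.

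Jchain joins IgM and IgA into polymers and was called lower with the reporter in homozygous cells. HetTN libraries had 364, 206, 636 and 181 CPM and HetTP libraries 73.7, 193, 144 and 136 CPM. KOTN libraries had 17, 28.7, 98.4 and 57.1 CPM and KOTP libraries 5.01, 6.5, 7.51 and 6.07 CPM. The fold change was -3.003 in homozygous cells (edgeR adjusted p = 0.0473, and 0.0687 with the homozygous spread alone) and -1.35 in heterozygous cells (0.121). The interaction of -1.66 (SE 0.64) had an adjusted p of 0.38.

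The germinal center is where activated B cells divide, mutate their receptors and are selected. Of its 17 genes tested, none was called for the interaction and the median was -0.544. At an unadjusted p under 0.05, 2 were positive and 5 negative, against 4.02% and 5.26% of all genes. The median effect was -0.167 in heterozygous and -0.573 in homozygous cells. With the homozygous spread alone 7 of the 17 fell and 1 rose in reporter-positive cells, against 1.44% and 0.73% of all genes. The 7 were Bcl6, Mef2b, Gcsam, Fas, Neil1, Nuggc and Mki67, and the 1 was Foxo1. S1pr2, the sphingosine phosphate receptor that keeps B cells in germinal centers, had 23.7, 29.4, 13 and 4.06 CPM in HetTN and 71.8, 72.3, 81.6 and 32.2 in HetTP. It had 10.7, 16.7, 22.7 and 21.7 CPM in KOTN and 8.47, 10.6, 11.6 and 1.92 in KOTP, and an interaction of -3.02 (SE 0.78, edgeR adjusted p = 0.157). HetTP libraries were above all others.

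Nuggc, a GTPase that limits the damage done by AID, had 88.4 ± 19.7 and 147 ± 33 CPM in HetTN and HetTP and 56.3 ± 11.5 and 35.6 ± 3.36 CPM in KOTN and KOTP, without overlap in either genotype (SD, n = 4). Its interaction was -1.39 (SE 0.30, edgeR adjusted p = 0.0876). Gcsam, a germinal center signalling adaptor, had 47.3 ± 12.8 and 38 ± 17 CPM in HetTN and HetTP. In KOTN it had 11.6, 7.47, 15.7 and 10.7 CPM and in KOTP 0.257, 1.33, 2.73 and 2 CPM, and the interaction was -2.51 (SE 0.67, edgeR adjusted p = 0.164). Mef2b, a transcription factor of germinal center B cells, had -0.25 in heterozygous and -1.17 in homozygous cells, and the repair enzyme Neil1 0.17 and -0.87. Against these, Foxo1 and Bach2, transcription factors that restrain differentiation, were positive at 1.18 (SE 0.43, edgeR adjusted p = 0.334) and 0.97 (SE 0.32, 0.269). Bcl6, the master regulator of the germinal center, had nearly the same effect in both genotypes, -0.67 and -0.54, and an interaction of 0.13 (SE 0.29, 0.982).

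**Figure D4:**
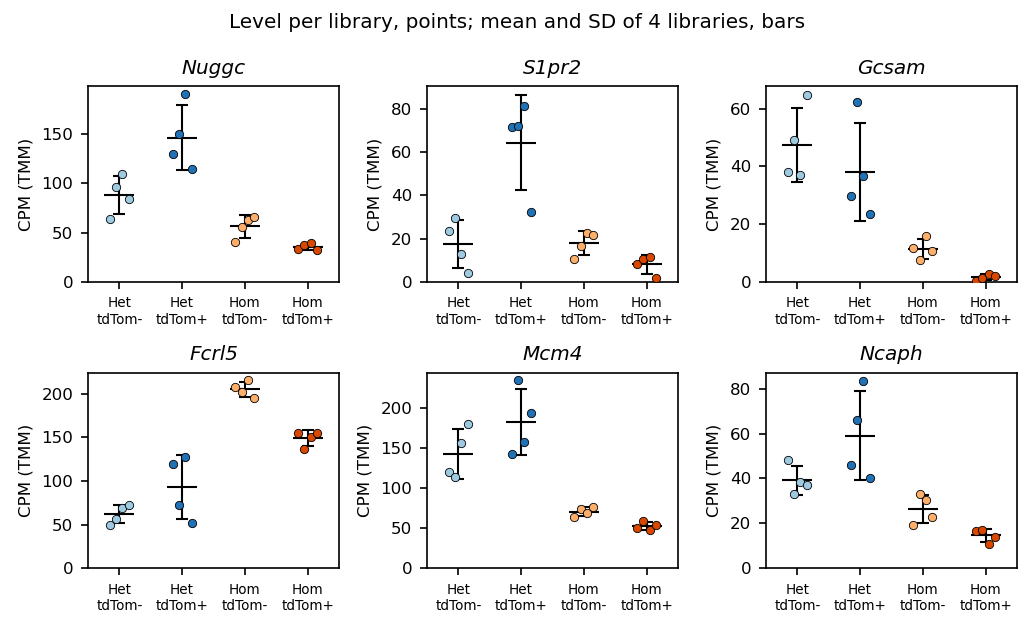
CPM in each of the 16 libraries (points) with the mean and SD of 4 libraries (bars) for 3 germinal center genes, the Fc receptor-like gene Fcrl5 and 2 division genes, by genotype and reporter. In homozygous cells the tdTomato-positive libraries lie below the tdTomato-negative ones except for an overlap in S1pr2, while in heterozygous cells they lie above or overlap, and none of the 6 was called for the interaction.

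Genes of cell division were treated as 2 lists. Of 41 genes of DNA replication and the G1/S step, none was called, 4 were negative at an unadjusted p under 0.05, and 32 lay below 0 with a median of -0.492. Of 37 genes of G2/M and mitosis, none was called, 3 were negative at that level, and 32 lay below 0 with a median of -0.595. Over all 10687 genes tested, 5.26% were negative at that level and 5647 lay below 0. Median effects of the 2 lists were 0.000 and -0.037 in heterozygous cells and -0.397 and -0.672 in homozygous cells. In homozygous cells 35 of 41 and 36 of 37 lay below 0, against 5524 of all 10687 genes. With the homozygous spread alone, 9 of 41 and 9 of 37 fell and none rose, against 1.44% and 0.73% of all genes. The helicase subunits Mcm5 (-0.75) and Mcm6 (-0.67) were among those that fell. Mcm4, a subunit of the replicative helicase, had 143 ± 31.2 and 182 ± 40.9 CPM in HetTN and HetTP and 70.7 ± 5.19 and 52.7 ± 4.99 CPM in KOTN and KOTP, with an interaction of -0.78 (SE 0.26, edgeR adjusted p = 0.286). Ncaph, a condensin subunit, had 39.3 ± 6.45 and 59 ± 19.7 CPM, then 26.4 ± 6.42 and 14.7 ± 2.79 CPM, and -1.44 (SE 0.40, 0.189). Mki67, the proliferation antigen Ki-67, had -0.17 in heterozygous and -0.66 in homozygous cells. The 38 genes of MYC and ribosome biogenesis had a median of -0.221 with none called, led by the nucleolar protein Nolc1 at -1.51 (SE 0.40, edgeR adjusted p = 0.159).

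Of the 11 genes of T-bet and CD11c positive B cells 10 had a negative interaction, against 5647 of all 10687 genes. The median of the 11 was -0.396, with Itgax the 1 called. An unadjusted p under 0.05 was reached by 4, all negative, against 5.26% of all genes. With Itgax set to its floor of 3 counts the median was the same. The median effect was 0.141 in heterozygous and -0.390 in homozygous cells. With the homozygous spread alone 5 of the 11 fell with the reporter, namely Itgax, Tbx21, Fcrl5, Fcgr2b and Zeb2, where 1.44% of all genes fell. Fcrl5, an inhibitory Fc receptor-like protein, had 61.8 ± 10.5 and 92.8 ± 36.5 CPM in HetTN and HetTP and 205 ± 8.83 and 149 ± 8.76 CPM in KOTN and KOTP, with an interaction of -1.04 (SE 0.31, edgeR adjusted p = 0.224). Itgb1, the beta 1 integrin, had -1.32 (SE 0.36, 0.168) and did not overlap in either genotype. Tbx21, which encodes T-bet, had a homozygous effect of -0.78, from 172 ± 7.68 to 100.3 ± 8.25 CPM. Its heterozygous levels of 11.9 ± 6.97 and 12.1 ± 8.79 CPM are low, and the interaction of -0.78 has an SE of 1.02. Zbtb32, a transcription factor that limits memory recall, had 134 ± 12.2 and 63.7 ± 7.04 CPM in KOTN and KOTP against 36.2 ± 40.3 and 84.8 ± 42.3 in HetTN and HetTP, and -2.30 (SE 0.78, edgeR adjusted p = 0.289).

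Of the 18 genes of resting follicular B cells 14 had a positive interaction, against 5040 of all 10687 genes tested. The median of the 18 was 0.127, and Fcmr was the 1 called. With the homozygous spread alone 8 of the 18 rose with the reporter and none fell, where 0.73% of all genes rose and 1.44% fell. Fcmr, Cd55, Fcer2a and Dgka were among the 8. Cd55, which protects cells from complement, had 177 ± 4.25 and 293 ± 31.9 CPM in KOTN and KOTP and 204 ± 29.2 and 227 ± 38.5 CPM in HetTN and HetTP, with an interaction of 0.57 (SE 0.20, edgeR adjusted p = 0.309). Fcer2a, the IgE receptor CD23, rose by 0.65 in homozygous cells and had 0.25 in heterozygous cells. Dgka, a diacylglycerol kinase that damps antigen receptor signals, had 0.59 and -0.24. Of 19 quiescence factors 14 were positive, with a median of 0.180 and none called, and 4 of the 19 rose with the homozygous spread alone, read against the same 0.73%. For these lists the homozygous calls come from a fit in which the heterozygous libraries gave 0 calls at a larger SE (median 0.627 against 0.201), and the difference between the genotypes was not called for any of their members except Fcmr and Itgax.

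**Figure D5:**
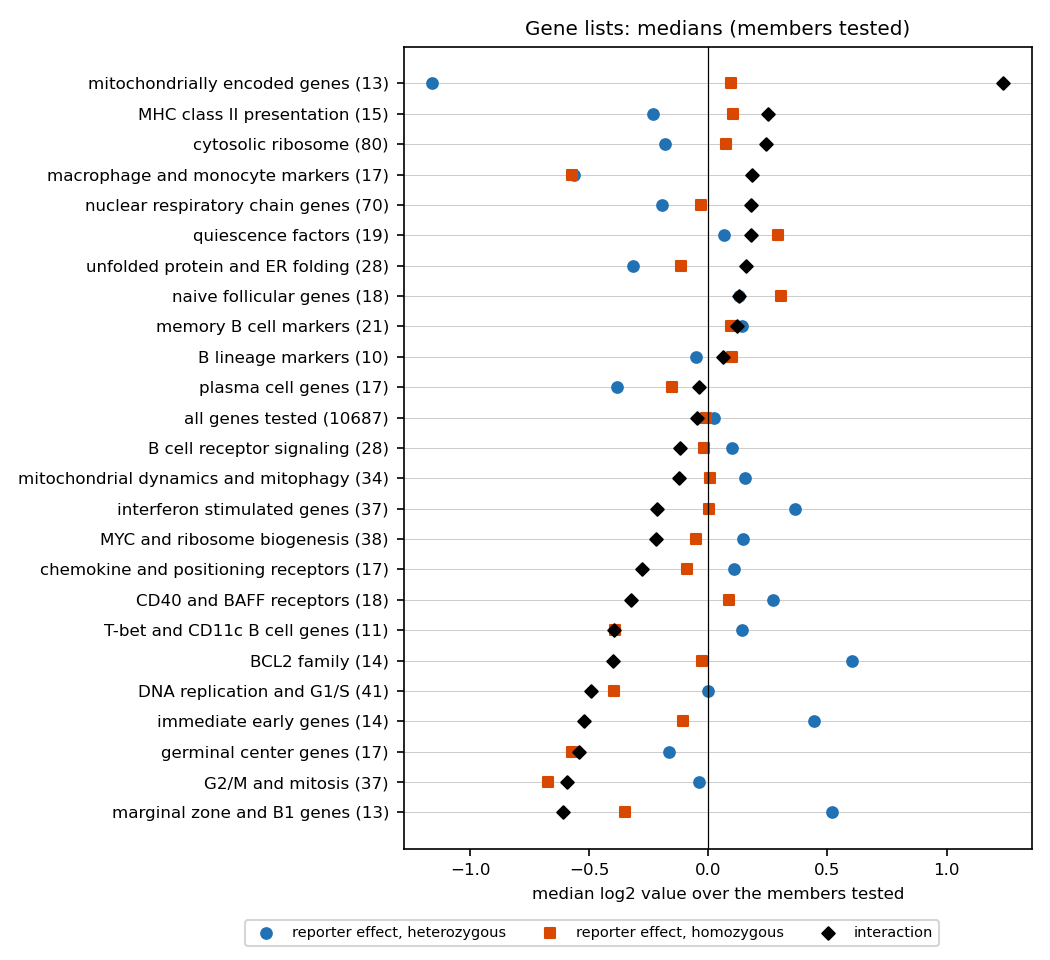
Median log2 reporter effect in heterozygous (circles) and homozygous (squares) mice and median interaction (diamonds) over the tested members of each list with at least 10 of them, and over all 10687 genes; the number of members stands in brackets. Mitochondrially encoded genes have the highest median interaction (1.24) and marginal zone and B1 genes the lowest (-0.608).

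No member of the remaining lists was called for the interaction. The 80 genes of the cytosolic ribosome had a median of 0.241, with 67 above 0, against 5040 of all 10687 genes. At an unadjusted p under 0.05, 7 of the 80 were positive, where 4.02% of all genes were. Rpsa, 1 of the 7, had 0.73 (SE 0.23, edgeR adjusted p = 0.256). The 28 genes of ER folding had a median of 0.159, the 28 of B cell receptor signalling -0.120, the 18 CD40 and BAFF receptor genes -0.326, the 14 immediate early genes -0.520 and the 37 interferon stimulated genes -0.215. The 13 marginal zone and B1 genes had a median of -0.608. Of these, Cd5 had 0 counts in HetTN and 215 in HetTP, then 179 and 104 in KOTN and KOTP. The 14 BCL2 family genes had -0.400, the 17 chemokine and positioning receptors -0.280, the 21 memory markers 0.120, the 17 plasma cell genes -0.040 and the 6 switched constant region genes 0.785. Medians of the memory and plasma cell lists changed sign in 2 of 8 other settings each.

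How large a difference the data could hide varied with expression. The median SE of the interaction was 0.66 over all genes tested and 0.352 over those 4342 more abundant genes. For 1944 genes (18.2%) the 95% interval lay within 1 log2 unit of 0, so for those a difference in reporter effect of 2-fold or more lies outside the interval. For all other genes without a call, a difference of that size was not excluded at this number and spread of libraries. Median sizes of effect were 0.431 in heterozygous and 0.171 in homozygous cells, which includes the larger noise of the heterozygous libraries.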

How the data were processed

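The deposited tables hold raw counts of reads over coding sequence per gene, per the file headers, 1 table per genotype. The submitters' processing notes name the build mm10 and the tools featureCounts, STAR 2.2.0 and Trim Galore, without their settings. Strand, multiple matches and read pairs are not given in the sources used here. Another 16 per-sample columns of scaled values were not used.

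The tables were joined on gene symbol (22675 genes) and filtered with filterByExpr by group, which left 10687. These were fitted as 4 group means over 16 libraries with edgeR 4.0.16 (R 4.3.3), TMM scaling and the robust quasi-likelihood test with Benjamini-Hochberg adjustment at 0.05. The interaction and both reporter effects are contrasts of that fit, and intervals are at 95%. Positions are from GENCODE's annotation of GRCm38. Other settings were DESeq2 1.42.0, limma 3.58.1 (voom with a weight per genotype), separate fits, other scalings and filters, a replicate block and leaving out each library.

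Named genes are Zfp318, Ighm and Ighd; up to 12 interaction calls per direction by size, at a mean log2 CPM of at least 3, topped up to 20 by p; up to 8 calls per direction of each reporter effect by p; and up to 3 members of each of 32 lists by interaction p. The ranked parts of the rule skip variable segments, pseudogenes, clones and predicted genes. Genes of the sort gate were also named, namely Ptprc, Sdc1, Fas, Cd38 and Ighd, and none of them was called for the interaction. Other list members are named to give a list's calls and were chosen after their values were seen. The comparison, the members and the lists were chosen with earlier results of these data known.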

Additional observations from a re-analysis of the deposited data

Results flagged for a closer look

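The interaction test itself found a difference between the genotypes for 13 genes. On the log2 scale the differences were 6.61 for Igkv4-50, 2.04 for Fcgrt, 1.81 for mt-Nd2, 1.38 for mt-Nd1, 1.33 for Sptan1, 1.02 for Iglc1, 0.89 for H2-DMb1, 0.86 for Fcmr, -2.49 for Plxnc1, -8.91 for Itgax, -9.44 for E2f6, -9.93 for RP23-94B13.4 and -12.98 for Fam83g. The last 4 have a group with 3 counts or fewer, so their sizes depend on the prior count of the fit.

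Among 138 groups of 4 libraries of 35 genes, 9 held a library far from the other 3 by Dixon's criterion, where chance gives about 1 in 20. Ighm had 12190 CPM in HetTP replicate 1, with 7628 CPM in the nearest library. Nrde2 had 60.8 CPM in HetTN replicate 2, with 30.8 CPM nearest, and Ctso 112.1 CPM in HetTP replicate 4, with 89.9 CPM nearest. mt-Nd2 had its lowest homozygous reporter-positive value, 314.8 CPM, in KOTP replicate 3, with 346.8 CPM nearest. E2f6 had 6.54 CPM in KOTN replicate 2, with 3.14 CPM nearest, and RP23-94B13.4 had 6.15 CPM in KOTP replicate 3, with 3.08 CPM nearest. The other 3 are single counts or pairs of counts against 0 in the remaining HetTN libraries, at 0.13 CPM for Itgax and 0.065 CPM for E2f6 in replicate 3, and 0.111 CPM for Spn in replicate 1.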

How the results depend on the processing

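The 13 interaction calls all remained with RLE and upper quartile scaling and with at least 5 CPM in at least 4 libraries, and 12 remained with no filter. DESeq2 called 194, the 13 among them, voom with a weight per genotype 7 and separate fits 1. Heterozygous calls numbered 114, then 709 with DESeq2, 2 with voom and 0 with separate fits (663 at an unadjusted p under 0.05). Homozygous calls numbered 2, then 11 with DESeq2, 264 with voom, 232 with separate fits and 0 with no filter (218 at an unadjusted p under 0.05). Without 1 library in turn, the interaction count ran from 1 to 41, the heterozygous from 46 to 488 and the homozygous from 0 to 3. Leaving out a library also changes which genes pass the filter, and the cause of these shifts was not tested.

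Same-numbered libraries correlated by -0.0086 to 0.0868, and not every library correlated best with its own number. Correlations this weak cannot decide whether the numbers pair the libraries. The reported fit did not treat them as pairs. With a replicate block there were 2 interaction calls (mt-Nd4 and Itgax), 23 heterozygous and 0 homozygous calls (177 at an unadjusted p under 0.05).

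Of 109 named genes, 7 changed sign in at least 1 setting (Car2, Fos, Prf1, Ptprc, S100a9, Zbtb46 and Zfp318), none of them called with either sign. Over all settings that keep every library, 791 values stayed on their side of the threshold, 34 lost and 35 gained a call, and over leave-outs 1600, 114 and 28. Only the 13 called genes could lose a call, so most values that stayed belong to genes never called. The totals are therefore no measure of how stable the 13 calls were. Without a homozygous library, Itgax alone of the 13 stayed called. Depth was not varied. Genes near 0 counts in HetTN have fitted sizes that no setting fixes.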

Other observations

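Variable segments of the antibody genes were measured outside the gene lists. Of 84 kappa segments tested, Igkv4-50 was the 1 called, 7 were positive and 5 negative at an unadjusted p under 0.05, and the median interaction was 0.263 with a median SE of 2.06. Of 57 heavy chain segments none was called by edgeR, 1 was positive and 4 negative at that level, and the median was -0.138 with a median SE of 2.38. Among all genes tested 4.02% were positive and 5.26% negative at that level. Ighv1-72 had 62.9 to 209 CPM in HetTN, 85.0 to 116 in HetTP, 225 to 404 in KOTN and 222 to 312 in KOTP, and an interaction of -0.04 (SE 0.38, edgeR adjusted p = 1.00).

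Iglv1, the variable segment joined to Iglc1, had 2539, 1906, 1478 and 1881 CPM in HetTN and 1388, 1349, 1578 and 657 CPM in HetTP. It had 8953, 9307, 10627 and 9657 CPM in KOTN and 9939, 10238, 10425 and 10206 CPM in KOTP. Its interaction of 0.73 (SE 0.28, edgeR adjusted p = 0.354) was not called, while that of Iglc1 was. Iglv2 had 8624 CPM in HetTN replicate 1 and 130.2 to 559 CPM in the other HetTN libraries. Igkv14-126 had 3896 CPM in HetTP replicate 1 and at most 238 CPM in any other library. Near-identical segments may share reads.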
